A study of Mus musculus with 16 samples.

Results

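Glycolysis and the metabolism linked to low oxygen were examined through 33 genes in cultured mouse ovarian follicles: glucose and lactate transporters, the glycolytic enzymes, the entry of pyruvate into mitochondria and genes known to respond to low oxygen. The genes were chosen by name, and each was read on the probe set annotated to that gene alone with the highest mean signal over all arrays. Of the 33 genes, 31 had such a probe set among 18194 genes with one on the array, and all 31 passed the filter on low signal that left 12166 genes for testing. Gpi1 and Eno1 were not analysed here.

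The 16 Affymetrix arrays fell into 4 groups of 4: follicles given 50 ng/ml recombinant anti-Müllerian hormone (AMH) for 24 h, control follicles given 0 ng/ml for 24 h, follicles given 50 ng/ml AMH for 12 h, and control follicles given 0 ng/ml for 12 h. AMH, a TGF-β family hormone, is made by the granulosa cells of growing follicles and restrains recruitment and the response to follicle-stimulating hormone (FSH). All follicles were of the preantral to small antral stages and came from C57BL/6Tac females labelled 8 weeks old, while the design text gives an age range that ends there. Every culture, control included, contained 80 IU/L FSH and 10 IU/L luteinizing hormone (LH). For each experiment the follicles of 8 mice were pooled and then split between the 2 arms. An AMH array and its control array of the same number and time were therefore taken to share a pool. Each array read 6 to 9 follicles. No array stands for a single animal, and 5 ng of total RNA was amplified for each.

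Glycolysis turns glucose into pyruvate in the cytosol: glucose enters through facilitative transporters, is phosphorylated by hexokinases, is committed at the phosphofructokinase step, and is split and oxidised by the later enzymes. Lactate dehydrogenase and the monocarboxylate transporters then pass lactate out of the cell or return it, while pyruvate dehydrogenase and its kinases decide how much pyruvate enters mitochondria. Many of these genes are known targets of hypoxia-inducible factor (HIF), whose alpha subunits are marked for destruction by the EGLN prolyl hydroxylases when oxygen is present. In the ovary, granulosa and cumulus cells take up glucose and supply the oocyte, which uses glucose poorly, with pyruvate and lactate.

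HIF binds DNA at a core of 5 letters, ACGTG or GCGTG, and this core was looked for on both strands (as CACGT or CACGC on the other) in the 250 bases before each start site in the RefSeq promoter table of build GRCm38.p6. A match is a description of the letters and not a binding site. Of 32 members with a window, 29 held a match in at least 1 window, against 41.5% of all genes. Counted by window, 37 of 45 member windows held a match, or 82.2%, against 38.6% of 32851 windows in all. Member windows were also richer in G and C, with a median of 61.6% against 52.4%, and among all windows at or above the members' median the share with a match was 64.9%. The windows of Eno2, Tpi1 and Gpi1 held none of these letters. The windows below are shown because the results turn on their genes: Slc2a1, Pfkm and Eno2 were called between the times, and Egln3, Aldoc, P4ha2 and Bnip3 are among the 5 members that varied most between arrays of a group. P4ha1 and Slc16a3 meet the same rule but their windows reach into the annotated gene and are not printed. They are written 5′ to 3′ on the strand of the gene, with the matches in capitals; CACGTG in the Pfkm and Bnip3 windows holds a match on each strand that overlap.
Slc2a1: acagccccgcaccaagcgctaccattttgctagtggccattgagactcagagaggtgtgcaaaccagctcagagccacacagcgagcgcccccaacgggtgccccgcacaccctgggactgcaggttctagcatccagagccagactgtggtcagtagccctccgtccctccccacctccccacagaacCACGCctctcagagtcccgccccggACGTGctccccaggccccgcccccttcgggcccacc
Pfkm: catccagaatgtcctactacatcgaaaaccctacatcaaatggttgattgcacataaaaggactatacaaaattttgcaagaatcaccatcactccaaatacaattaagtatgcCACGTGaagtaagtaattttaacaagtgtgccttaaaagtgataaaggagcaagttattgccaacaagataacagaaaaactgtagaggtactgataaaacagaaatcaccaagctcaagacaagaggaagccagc
Eno2: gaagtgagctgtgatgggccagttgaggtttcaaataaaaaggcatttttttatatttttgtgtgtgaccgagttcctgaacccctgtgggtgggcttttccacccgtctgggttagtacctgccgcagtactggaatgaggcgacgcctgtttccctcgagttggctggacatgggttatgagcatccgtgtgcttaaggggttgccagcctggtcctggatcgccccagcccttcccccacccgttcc
Egln3: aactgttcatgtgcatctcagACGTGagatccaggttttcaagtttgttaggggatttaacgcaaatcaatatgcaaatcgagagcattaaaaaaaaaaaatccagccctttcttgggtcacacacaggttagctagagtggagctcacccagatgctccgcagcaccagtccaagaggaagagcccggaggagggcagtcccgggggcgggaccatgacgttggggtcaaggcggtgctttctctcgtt
Aldoc: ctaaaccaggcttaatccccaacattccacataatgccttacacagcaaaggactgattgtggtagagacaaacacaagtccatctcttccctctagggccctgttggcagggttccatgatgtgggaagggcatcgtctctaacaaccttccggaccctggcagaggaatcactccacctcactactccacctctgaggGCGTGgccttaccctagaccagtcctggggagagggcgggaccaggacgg
P4ha2: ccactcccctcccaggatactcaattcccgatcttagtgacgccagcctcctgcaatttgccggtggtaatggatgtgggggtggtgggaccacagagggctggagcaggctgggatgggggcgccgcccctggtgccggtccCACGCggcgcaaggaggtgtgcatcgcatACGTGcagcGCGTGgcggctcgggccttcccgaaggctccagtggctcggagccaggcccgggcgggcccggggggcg
Bnip3: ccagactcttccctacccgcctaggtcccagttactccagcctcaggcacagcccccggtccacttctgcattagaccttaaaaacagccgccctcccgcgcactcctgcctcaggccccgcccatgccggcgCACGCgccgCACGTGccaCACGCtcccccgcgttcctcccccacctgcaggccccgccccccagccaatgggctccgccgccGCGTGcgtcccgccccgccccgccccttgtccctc

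The Slc2a1 window lies at chr4:119108495-119108744 on the plus strand and holds 2 matches, 1 of each core. Pfkm has 4 windows in the table; the one before the outermost one lies at chr15:98092339-98092588 on the plus strand and holds 2, both ACGTG. Eno2, at chr6:124769674-124769923 on the minus strand, has no match and so no capitals. The Egln3 window at chr12:54203875-54204124 on the minus strand and the Aldoc window at chr11:78322823-78323072 on the plus strand hold 1 each. P4ha2, at chr11:54100674-54100923 on the plus strand, has 3. The Bnip3 window at chr7:138909507-138909756 on the minus strand has 5, the most found in a member window, a number reached also by Ldha. Each printed window ends at the base before the outermost annotated start of its gene.

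The deposited values were linear signals scaled to a trimmed mean of 150 on every array, and are given here as log2(signal + 1.46). Array medians lay between 27.8 and 40.2 signal units, and arrays of one group correlated at 0.955 to 0.974 over all 45101 probe sets. Of the defining markers of follicle cells, the granulosa genes Foxl2 (9.05 to 10.55) and Inha (9.55 to 12.17) and the oocyte genes Zp3 (8.53 to 10.76), Gdf9 (7.31 to 9.89) and Ooep (9.40 to 11.06) were above the filter of 4.18 on every array. Amh (2.40 to 5.79) and Fshr (2.56 to 8.12) fell below that level on some arrays, but no array listed any of these genes at 0. The number of oocyte and somatic transcripts in a sample varied: the mean over 26 of 30 oocyte markers differed by 4.60-fold between arrays. In such pooled samples, fewer cells of a type and less RNA per cell cannot be told apart.

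The first question was whether AMH changed these genes. None of the 31 members was called in AMH-treated against control follicles at 24 h, at 12 h, in the mean of both times or in the difference between the times (limma with the 8 pairs as a block, adjusted over 12166 genes). The background was as low: 0.0164% of all genes were called at 24 h and 0% in each of the 3 other contrasts. No member reached even an unadjusted p under 0.05, a level met by 4.08% of all genes at 24 h, 6.47% at 12 h, 4.80% in the mean and 5.65% in the difference. The smallest adjusted p of a member by limma was 1 at 24 h, 0.799 at 12 h, 0.999 in the mean and 0.879 in the difference. The median change over the members was -0.027 at 24 h and -0.041 in the mean, against 0.006 and 0.008 over all genes, and at 12 h it was -0.043 against 0.009. By sign, 13 members were above 0 and 18 below at 24 h, and 14 above and 17 below at 12 h.

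Hk2, the hexokinase isoform induced by insulin and low oxygen, had the highest estimate at 12 h. Its log2 signals were 10.08, 10.04, 9.35 and 9.93 in AMH-treated follicles at 12 h, against 9.84, 9.60, 8.85 and 9.76 in control follicles of replicates 1 to 4. Each AMH array was above its own control array, but the groups overlapped. The difference was 0.34 (95% interval -0.06 to 0.74), or 1.27-fold, with a limma adjusted p of 0.799. At 24 h Hk2 read 9.13, 9.64, 9.59 and 9.56 in AMH-treated and 9.98, 10.01, 9.75 and 8.99 in control follicles. There 1 of 4 pairs was above 0, and the difference was -0.20 (-0.60 to 0.20). The AMH effect on Hk2 at 24 h minus that at 12 h was -0.54 (-1.10 to 0.02, limma adjusted p = 0.879), the lowest such difference among the members.

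Slc2a3, the high-affinity glucose transporter GLUT3, had the highest estimate at 24 h. It read 6.21, 6.71, 6.90 and 6.77 in AMH-treated follicles at 24 h, against 5.58, 6.93, 6.28 and 6.41 in controls. In 3 of 4 pairs the AMH array was the higher, and control replicate 2 stood above all of the AMH arrays. The difference of 0.34 (-0.11 to 0.80) had a limma adjusted p of 1. At 12 h the 2 arms averaged 7.04 ± 0.41 in AMH-treated and 7.07 ± 0.46 in control follicles (SD, n = 4 each).

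Pdha1, the catalytic alpha subunit of pyruvate dehydrogenase, was the only member whose pairs all pointed one way at both times on the probe set used. Its other probe set had estimates of -0.02 at 24 h and -0.12 at 12 h, opposite in sign. At 24 h it read 8.05, 8.37, 8.35 and 8.36 in AMH-treated and 7.86, 8.28, 8.15 and 8.18 in control follicles, and at 12 h 8.06, 8.06, 8.58 and 8.41 in AMH-treated and 7.88, 8.03, 8.54 and 8.30 in control follicles. The pairs differed by little, while the pools differed from each other by more. The estimates were 0.17 (-0.06 to 0.39) at 24 h, 0.09 (-0.13 to 0.31) at 12 h and 0.13 (-0.03 to 0.28) in the mean, with limma adjusted p values of 1, 0.932 and 0.999. Over all genes, 9.4% had their 4 pairs on one side at 24 h and 17.9% at 12 h, so 1 member of 31 at 24 h and 3 (Hk2, Pfkm and Pdha1) at 12 h were no more than that background. No member had all AMH arrays above or below all control arrays, which 2.05% of all genes had at 24 h and 2.61% at 12 h.

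The estimates bounded what an AMH effect could have been. The 95% interval lay within 2-fold either way for 25 of 31 members at each time, against 87.6% of all genes at 24 h and 87.2% at 12 h, and for 29 of 31 in the mean of both times (96.9% of all genes). Some intervals were narrow. For Pgam1, phosphoglycerate mutase, the interval was -0.21 to 0.15 at 24 h and -0.24 to 0.12 at 12 h. For Aldoa, the main aldolase outside liver and brain, it was -0.39 to 0.06 and -0.21 to 0.24, and for Gapdh it was -0.42 to 0.06 and -0.19 to 0.29. At the other end stood Egln3, a HIF prolyl hydroxylase and itself a HIF target, with -1.67 to 1.77 at 24 h and -2.05 to 1.38 at 12 h. Slc16a3, the lactate exporter MCT4, had -1.28 to 1.56 at 24 h and -1.90 to 0.93 at 12 h, where its estimate of -0.48 was the lowest of any member. Effects larger than 2-fold were thus within the interval for Slc16a3, Egln3, Aldoc, Pdk1 and P4ha2 at both times, for Pfkp at 24 h and for Hk1 at 12 h.

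**Figure D1:**
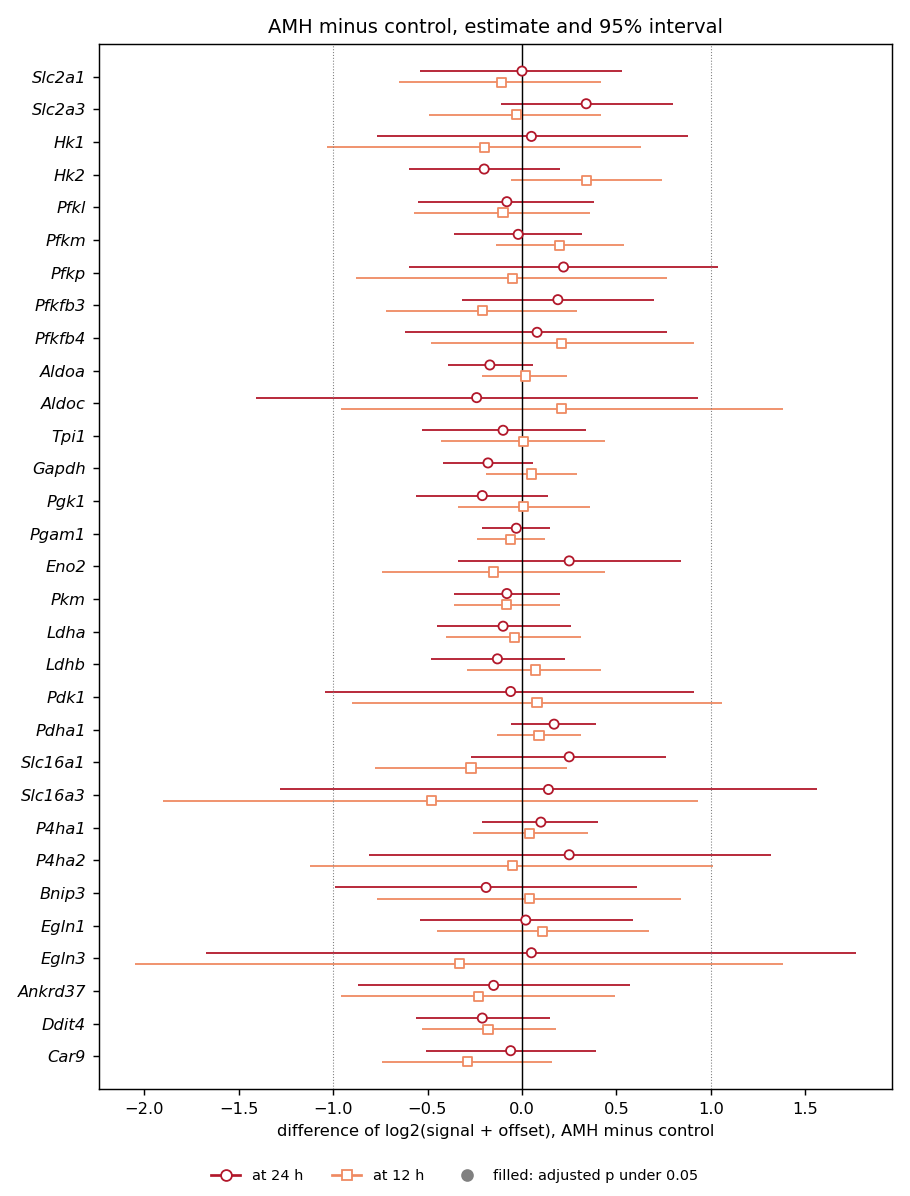
AMH minus control for the 31 members, as differences of log2(signal + 1.46) on the horizontal axis, with circles for 24 h above squares for 12 h and bars for 95% limma intervals; dotted lines mark 2-fold. Every interval crosses 0 and no symbol is filled; the estimates run between -0.24 (Aldoc) and 0.34 (Slc2a3) at 24 h and between -0.48 (Slc16a3) and 0.34 (Hk2) at 12 h.

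By step of the pathway, the AMH estimates stayed small. For the 4 genes of glucose entry and phosphorylation (the transporters Slc2a1 and Slc2a3 and the hexokinases Hk1 and Hk2) the median was 0.03 at 24 h and -0.07 at 12 h. For the 5 genes of the fructose phosphate steps, the phosphofructokinases Pfkl, Pfkm and Pfkp and the regulatory Pfkfb3 and Pfkfb4, it was 0.08 and -0.05. Among the 8 genes of the lower pathway, Aldoa to Pkm, 7 were below 0 at 24 h with a median of -0.13, and 3 were below 0 at 12 h with a median of 0.01. The 6 genes of lactate and pyruvate had medians of 0.04 and 0.01, and the 8 oxygen- and stress-linked genes of -0.02 and -0.11. Estimates of members that share arrays are not independent of each other.

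The second comparison set 24 h against 12 h of culture within each arm. In AMH-treated follicles 1 of the 31 members passed the test, Pfkm, which rose. In control follicles 4 passed it: Pfkm rose, and Slc2a1, Eno2 and P4ha1 fell. The share of all genes called was far larger here than for AMH, at 4.34% higher and 3.95% lower in AMH-treated follicles and 9.96% higher and 9.19% lower in control follicles, so in control follicles 3 of 31 members lower was close to the background share and 1 of 31 higher was below it. On balance the members lay below 0, with 8 of 31 above and 23 below in each arm. Of all genes, 48.1% were above 0 in AMH-treated and 48.6% in control follicles. Members share their arrays and the arms are taken to share pools, so these counts are not independent. The members' median change was -0.15 in AMH-treated and -0.071 in control follicles, against -0.017 and -0.014 over all genes. The 2 times are separate cultures, and the labels do not say that they shared a pool.

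Pfkm, the muscle-type phosphofructokinase, was the member that changed most clearly. Its log2 signals were 8.19, 7.94, 7.57 and 8.00 in AMH-treated follicles at 24 h, against 7.07, 7.39, 6.91 and 7.16 at 12 h. In control follicles they were 7.74, 8.04, 7.99 and 8.02 at 24 h, against 7.02, 6.96, 6.64 and 7.12 at 12 h. Every 24 h array lay above every 12 h array in both arms. The rise was 1.73-fold in AMH-treated follicles (log2 0.79, SE 0.15, limma adjusted p = 0.00533; 0.0566 without replicate 4) and 2.02-fold in control follicles (log2 1.01, SE 0.15, limma adjusted p = 0.000487). The rise in AMH-treated minus that in control follicles was -0.22 (-0.70 to 0.26, limma adjusted p = 0.95). The other phosphofructokinases gave no such change: Pfkl, the liver type, had 0.02 (-0.75 to 0.78) in AMH-treated and 0.00 (-0.77 to 0.76) in control follicles, and Pfkp, the platelet type, had 0.00 (-1.02 to 1.01) and -0.28 (-1.29 to 0.74). Pfkm was read by a single probe set.

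Eno2, the neuronal type of enolase, went the other way. It read 5.30, 6.37, 5.98 and 6.12 in AMH-treated follicles at 24 h, against 6.42, 6.40, 6.69 and 7.01 at 12 h. Control follicles had 5.63, 5.51, 5.76 and 5.87 at 24 h, against 6.95, 7.07, 6.96 and 6.14 at 12 h. The 24 h arrays were the lower in both arms with no overlap, though AMH replicate 2 at 24 h lay close below the lowest 12 h array and control replicate 4 at 12 h stood apart from the other 3. Eno2 fell in control follicles to 0.47 of its 12 h level (log2 -1.09, SE 0.25, limma adjusted p = 0.00623), a call that was lost without replicate 2 or replicate 3 (adjusted p up to 0.0569). In AMH-treated follicles the change was -0.69 (SE 0.25, limma adjusted p = 0.0921). The AMH-minus-control difference between these changes was 0.40 (-0.43 to 1.24, limma adjusted p = 0.95). Eno2 was also read by a single probe set.

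P4ha1, the catalytic subunit of collagen prolyl 4-hydroxylase and a known HIF target, was also lower at 24 h. It read 9.68, 9.66, 9.92 and 9.54 in AMH-treated follicles at 24 h, against 10.44, 10.67, 9.86 and 10.13 at 12 h. Control follicles had 9.83, 9.87, 9.62 and 9.10 at 24 h, against 10.42, 10.23, 9.91 and 10.38 at 12 h. The control groups did not overlap, while in the AMH arm replicate 3 at 24 h stood above replicate 3 at 12 h. P4ha1 fell 1.55-fold in control follicles (log2 -0.63, SE 0.18, limma adjusted p = 0.0258), a call lost without replicate 1 or replicate 4 (adjusted p up to 0.165). In AMH-treated follicles the change was -0.58 (SE 0.18, limma adjusted p = 0.0641). Both probe sets of P4ha1 gave a like change, between -0.59 and -0.58 in AMH-treated and between -0.69 and -0.63 in control follicles.

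Slc2a1, the main glucose transporter GLUT1, was the last of the 4. It read 10.07, 10.51, 10.54 and 10.71 in AMH-treated follicles at 24 h, against 10.82, 11.49, 10.81 and 10.98 at 12 h. Control follicles had 10.87, 10.90, 10.37 and 9.71 at 24 h, against 11.31, 11.08, 10.85 and 11.33 at 12 h. The AMH-treated groups did not overlap and the control groups did. Slc2a1 fell 1.60-fold in control follicles (log2 -0.68, SE 0.23, limma adjusted p = 0.049), and this call held in 8 of 19 alternative settings and in none that left out a replicate (adjusted p up to 0.261 over the 19). In AMH-treated follicles the change was -0.57 (SE 0.23, limma adjusted p = 0.14). All 3 of its probe sets lay below 0, between -0.57 and -0.40 in AMH-treated and between -0.71 and -0.66 in control follicles. Over all genes, 15.1% in the AMH arm and 22.3% in the control arm had groups that did not overlap, as 3 members did in each arm (Pfkm, Eno2 and Slc2a1 in AMH-treated, Pfkm, Eno2 and P4ha1 in control follicles).

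**Figure D2:**
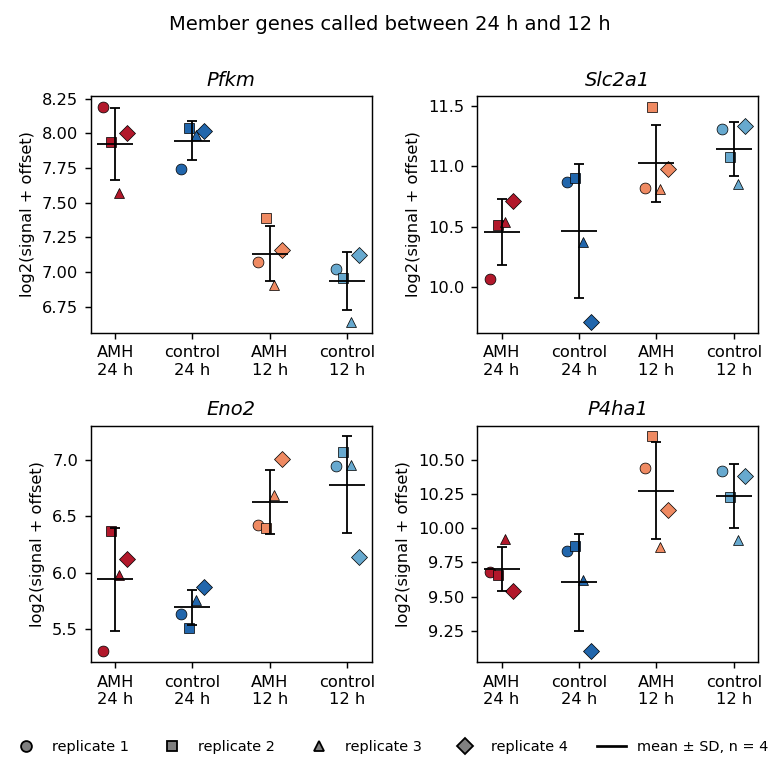
Log2(signal + 1.46) of the 4 members called between 24 h and 12 h, in each array by group, with bars for the mean ± SD of 4 arrays and a symbol for each replicate number. Pfkm is higher on every 24 h array; Eno2 is lower in both arms, and for Slc2a1 and P4ha1 the 24 h and 12 h arrays overlap in 1 arm each.

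The remaining members showed no call with time. In glucose entry, Slc2a3 had the same sign as Slc2a1, with -0.39 (SE 0.29) in AMH-treated and -0.77 (SE 0.29, limma adjusted p = 0.0721) in control follicles. Hk1, the housekeeping hexokinase, had -0.34 and -0.59, and Hk2 had -0.37 and 0.17. Pfkfb3 and Pfkfb4, which make the activator fructose 2,6-bisphosphate, lay between -0.15 and 0.36 in both arms. In the lower pathway, Aldoc, the brain-type aldolase, had the largest estimates at 0.69 (SE 0.58) in AMH-treated and 1.13 (SE 0.58, limma adjusted p = 0.182) in control follicles, with group SDs of up to 1.34. Tpi1 (triose phosphate isomerase), Aldoa, Gapdh (the glyceraldehyde phosphate step), Pgk1 (phosphoglycerate kinase), Pgam1 and Pkm (pyruvate kinase) lay between -0.29 and 0.11 on the probe sets used. The 3 probe sets of Pgk1 lay between -0.29 and -0.24 in AMH-treated and between -0.52 and -0.02 in control follicles.

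Of the genes of lactate and pyruvate, Ldha, the subunit that favours lactate formation, had -0.26 in AMH-treated and -0.20 in control follicles, and Ldhb, the heart-type subunit, had 0.07 and 0.26. Pdk1, a kinase that switches pyruvate dehydrogenase off, had -0.02 and 0.12, and its target subunit Pdha1 had 0.01 and -0.07. The 4 probe sets of Pdk1 lay between -0.08 and 0.37 in AMH-treated and between 0.12 and 0.92 in control follicles. The 2 of Pdha1 lay between -0.31 and 0.01 and between -0.40 and -0.07. Slc16a1, the lactate and pyruvate carrier MCT1, had 0.30 and -0.22, and Slc16a3 had -0.33 and -0.95, each with an SE of 0.73. Among the oxygen- and stress-linked genes, 7 of 8 were below 0 in each arm, with medians of -0.30 in AMH-treated and -0.41 in control follicles. P4ha2, another collagen hydroxylase subunit, had -0.49 and -0.79, Egln3 had -0.53 and -0.91, and Ankrd37, a small ankyrin-repeat HIF target, had -0.47 and -0.55. Egln1, the main oxygen-sensing hydroxylase, Ddit4, an inhibitor of mTORC1 signalling, and Car9, a carbonic anhydrase of the cell surface, lay between -0.26 and -0.03. Bnip3, a mitophagy receptor, was the exception by sign at 0.14 and 0.37.

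**Figure D3:**
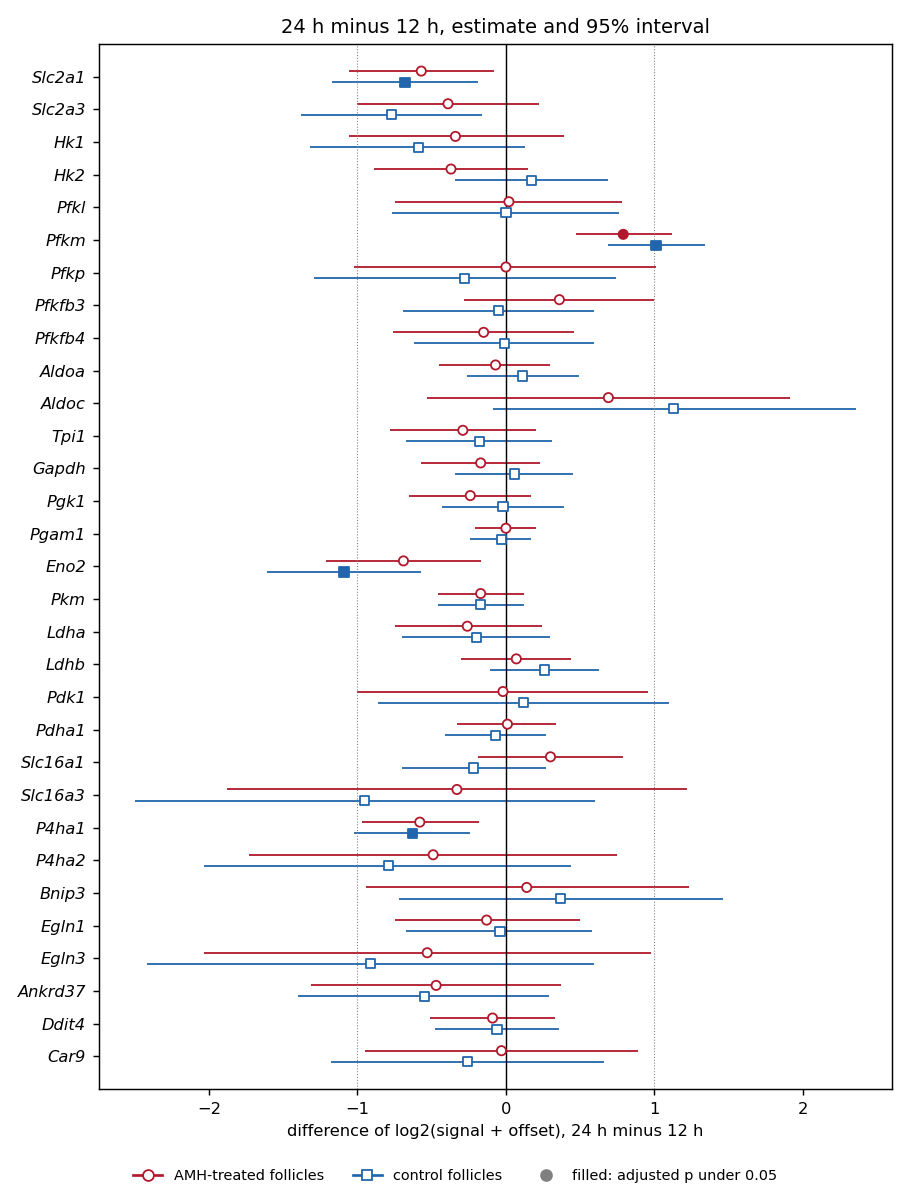
Differences of log2(signal + 1.46), 24 h minus 12 h, for the 31 members, with circles for AMH-treated above squares for control follicles, bars for 95% limma intervals and filled symbols for an adjusted p under 0.05; dotted lines mark 2-fold. Pfkm is filled in both arms at 0.79 and 1.01; Slc2a1, Eno2 and P4ha1 are filled in control follicles only, with the AMH-arm estimates on the same side of 0.

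Marker means of several cell types also differed between the times. The mean log2 signal of 14 of 15 granulosa markers was 9.47 (8.99 to 9.94) in AMH-treated and 9.30 (8.87 to 9.55) in control follicles at 24 h, against 8.53 (7.97 to 8.93) and 8.45 (7.77 to 8.85) at 12 h. For 12 of 16 markers of stroma and smooth muscle it was 8.94 (8.72 to 9.08) and 8.44 (8.17 to 8.63) at 24 h, against 7.90 (7.64 to 8.25) and 7.67 (6.83 to 8.43) at 12 h. For 5 of 8 theca markers it was 9.80 (9.25 to 10.19) and 9.79 (9.45 to 10.10), against 8.98 (8.27 to 9.31) and 9.08 (8.89 to 9.22). The part of these shifts in the members' changes was not tested. The oocyte mean differed less, at 7.36 in AMH-treated and 7.51 in control follicles at 24 h, against 7.52 and 7.64 at 12 h. With the oocyte mean as a covariate, Pfkm kept its call in both arms and Slc2a1, Eno2 and P4ha1 kept theirs in control follicles. That fit does not adjust for the granulosa, stroma or theca shifts.

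Ratios between isoforms of a step were compared on the same array, as the log2 signal difference of 2 genes at 24 h minus that at 12 h, for 10 gene pairs in each arm. An exact two-sided permutation test over 4 against 4 arrays can reach p = 0.0286, and none of the 20 tests passed an adjusted p of 0.05; the smallest adjusted p was 0.571. At least 12 of the 20 tests would have to reach that floor for any to pass, so no ratio could pass alone and they are given as values. The Pfkm to Pfkl ratio was higher at 24 h by 0.78 in AMH-treated (exact p = 0.0857) and by 1.02 in control follicles (exact p = 0.0571). The Hk2 to Hk1 ratio had differences of -0.03 in AMH-treated and 0.76 in control follicles (exact p = 0.914 and 0.0571), and the Slc16a3 to Slc16a1 ratio of -0.63 and -0.73 (exact p = 0.486 and 0.657). For the Ldhb to Ldha ratio the estimates were 0.32 and 0.46 (exact p = 0.257 and 0.314).

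Arrays of one group differed widely in some members and little in others. The members' within-group SD had a median of 0.388 on the log2 scale, against 0.268 over all tested genes, and 9 of 31, or 29%, lay above the 90th percentile of all genes. These were Slc16a3 (SD 1.21), Egln3 (1.17), Aldoc (0.95), P4ha2 (0.95), Bnip3 (0.84), Pfkp (0.79), Pdk1 (0.75), Car9 (0.70) and Ankrd37 (0.64). Of the 9, Pfkp and Aldoc are glycolytic enzymes, Slc16a3 and Pdk1 govern lactate and pyruvate, and the other 5 are the oxygen-linked P4ha2, Bnip3, Egln3, Ankrd37 and Car9. The steadiest were Pgam1 (0.13), Pkm (0.20), Pfkm (0.21) and Pdha1 (0.23), the 4 members under the median of all genes.

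Slc16a3 spanned 17.3-fold over the 16 arrays. It read 7.39, 9.22, 9.30 and 9.34 in AMH-treated follicles at 24 h, against 9.85, 9.70, 8.63 and 6.52 in controls. At 12 h it read 8.71, 10.42, 7.96 and 9.46 in AMH-treated and 10.15, 9.84, 7.87 and 10.63 in control follicles. In AMH-treated follicles at 24 h and in control follicles at both times, 1 array lay well below the rest. In AMH-treated follicles at 12 h the values were spread evenly. The lowest arrays of the groups were AMH replicate 1 and control replicate 4 at 24 h, and replicate 3 of both arms at 12 h.

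P4ha2 had the same lowest array in each group. It read 5.65, 6.90, 6.93 and 6.99 in AMH-treated and 6.98, 6.67, 6.50 and 5.30 in control follicles at 24 h, and 6.58, 8.25, 6.31 and 7.28 in AMH-treated and 7.77, 7.33, 5.17 and 8.36 in control follicles at 12 h. Bnip3 read 9.88, 11.18, 10.75 and 11.04 in AMH-treated and 11.49, 11.60, 10.87 and 9.65 in control follicles at 24 h, and 10.90, 11.45, 9.07 and 10.85 in AMH-treated and 11.00, 10.59, 9.38 and 11.16 in control follicles at 12 h. Both genes spanned less than Slc16a3, by 9.13-fold for P4ha2 and 5.76-fold for Bnip3. Egln3 spanned 13.5-fold but in another order, with 5.71 in AMH-treated against 8.95 in control follicles in the first pair at 24 h, and 9.05 against 7.04 in the second pair at 12 h.

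**Figure D4:**
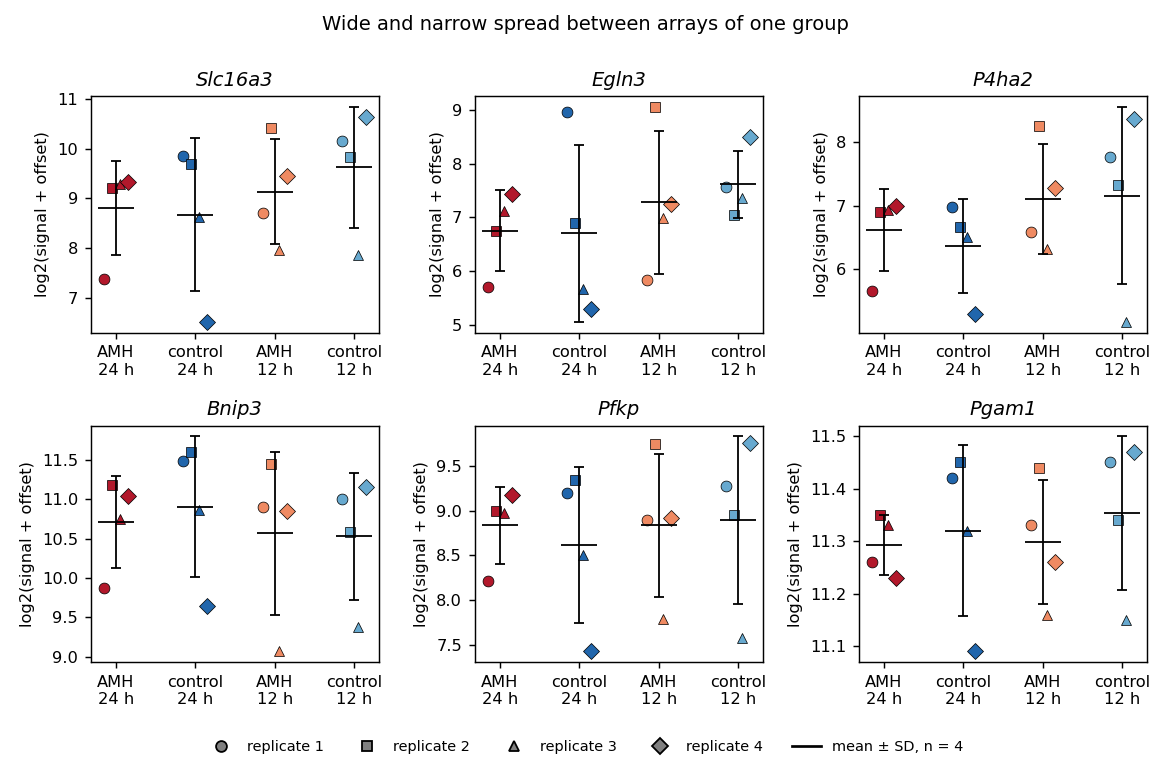
Log2(signal + 1.46) of 5 members of wide spread (Slc16a3, Egln3, P4ha2, Bnip3 and Pfkp) and of Pgam1, the steadiest, in each array by group, with bars for the mean ± SD of 4 arrays. The lowest array of a group is replicate 1 in AMH 24 h, replicate 4 in control 24 h and replicate 3 in both 12 h groups for Slc16a3, P4ha2, Bnip3 and Pfkp; the Pgam1 axis spans 11.09 to 11.47.

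These lowest arrays were those richest in oocyte transcripts. The mean over 26 oocyte markers was 8.28 in AMH replicate 1 and 8.41 in control replicate 4 at 24 h, where the other 3 arrays of each group lay at or below 7.17 and 7.41. At 12 h it was 7.79 in AMH replicate 3 and 8.65 in control replicate 3, against at most 7.50 and 7.92 on the others. These arrays were also extreme in other marker means. At 12 h, AMH and control replicate 3 were the lowest of their groups for granulosa (7.97 and 7.77). They were the highest for endothelial (7.50 and 7.91) and stroma markers (8.25 and 8.43). At 24 h, AMH replicate 1 and control replicate 4 were the lowest for theca (9.25 and 9.45) and immune markers (5.51 and 5.31). AMH replicate 1 was there the highest for granulosa markers (9.94). In 16 of 31 members the oocyte-richest array had the lowest signal of its group in all 4 groups, as it had in 3.61% of all tested genes, and in no member was it the highest in all 4, against 5% of all genes. The 16 were Slc2a1, Hk2, Pfkl, Pfkp, Aldoc, Tpi1, Pgk1, Pkm, Ldha, Pdk1, Slc16a3, P4ha2, Bnip3, Egln1, Ankrd37 and Ddit4. Other members did not follow: in 3 of 4 groups the oocyte-richest array was the highest for Slc16a1, and in 2 of 4 for Pdha1, Ldhb and Car9. The relation was looked for after the values had been seen, and the members share their arrays. The part of the oocyte share, or of the other cell types, in the spread was not tested.

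**Figure D5:**
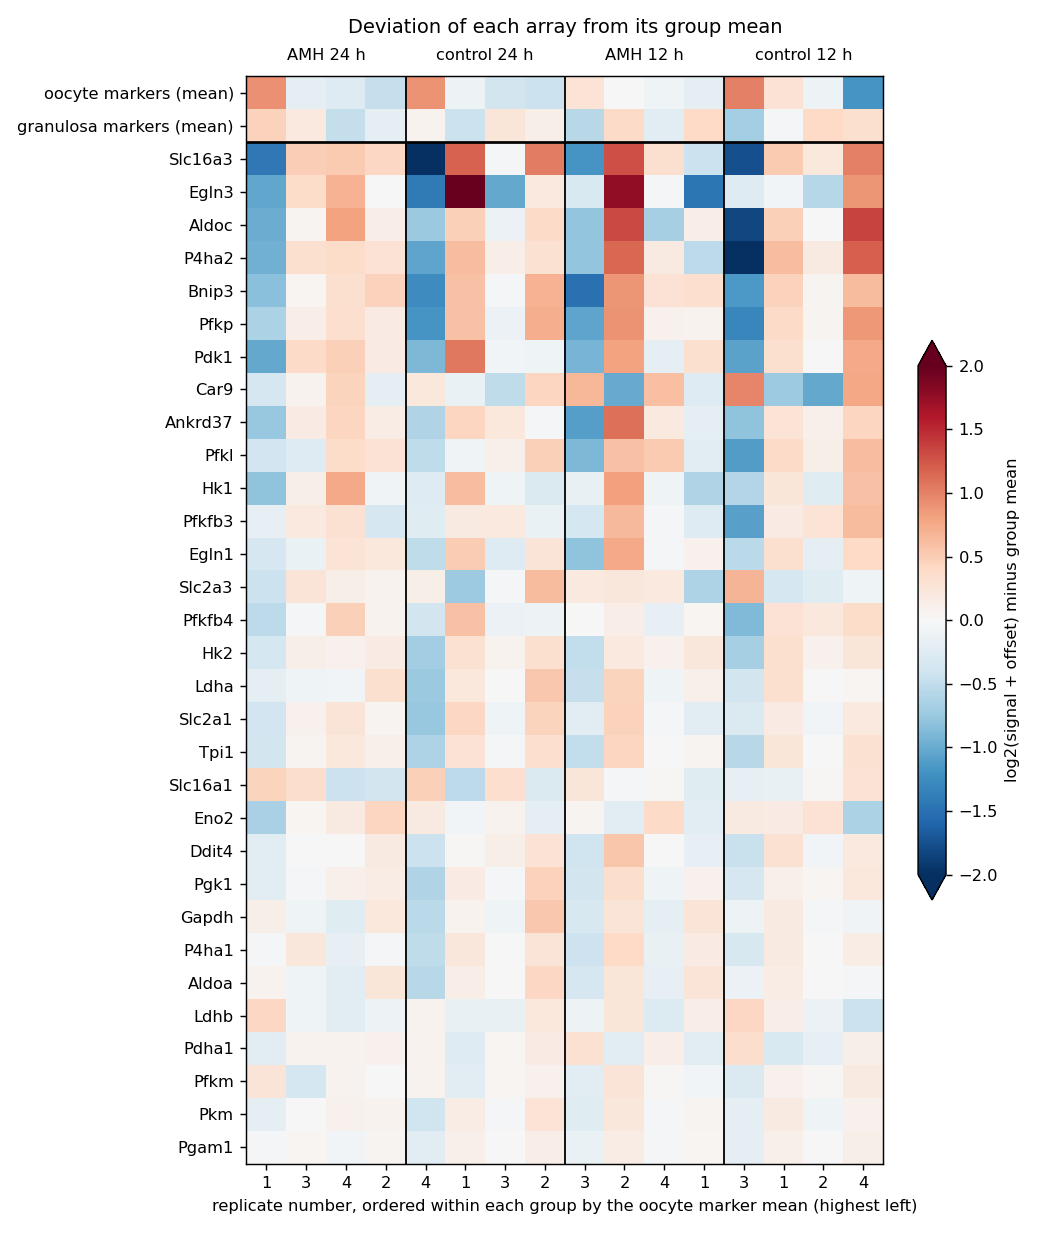
Deviation of each array from its group mean of log2(signal + 1.46), with red above and blue below, for the 31 members in order of within-group SD and, on top, for the means of 26 oocyte and 14 granulosa markers; arrays are ordered within each group by the oocyte mean, highest on the left. The leftmost column of each group is blue for most members, and for 16 of 31 it is the lowest in all 4 groups.

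In some members of wide spread the AMH pairs differed in sign. At 24 h the oocyte-richest arrays were in different pairs, and the AMH-minus-control differences of Slc16a3 were -2.46, -0.48, 0.67 and 2.82 for replicates 1 to 4. For Egln3 they were -3.24, -0.15, 1.45 and 2.14, and for Pdk1 -2.13, 0.19, 0.38 and 1.31. The pairs of replicates 1 and 4 pointed opposite ways in each of these genes. For Egln3, control replicate 1 at 24 h read 8.95, the highest of its group, and was not the oocyte-richest array. The part of the oocyte share in these differences was not tested. With the oocyte-richest array of each group left out, an alternative added after the data were seen, no member was called for AMH at either time, and Pfkm stayed the only member called higher with time in both arms. Those called lower were then Hk2 and P4ha1 in AMH-treated and Eno2, P4ha1 and P4ha2 in control follicles, where Slc2a1 lost its call. Of all 12166 genes, this fit called 615 with time in AMH-treated and 1997 in control follicles, in either direction. For AMH it called 0 genes at 24 h and 14 at 12 h.

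Other genes of the same pathways were described by counts. For AMH no gene of any of the 8 lists was called at either time. Among 13 of 25 other glycolysis genes measured, the smallest p values were those of Eno3, the muscle enolase (0.39), and Galm, aldose mutarotase (0.50), at 24 h and of Ldhd, the D-lactate dehydrogenase (0.43), and Pfkfb2 (0.24) at 12 h. Among 24 of 28 other hypoxia-linked genes they were those of the lysyl hydroxylase Plod1 (0.37) and Tmem45a (0.61) at 24 h and of Tmem45a (-0.73) and the histone demethylase Kdm3a (0.35) at 12 h. Among the 8 HIF factors and oxygen sensors, they were Epas1, a HIF alpha subunit (0.35), and Arnt2 (-0.35) at 24 h and Vhl, which tags HIF for destruction (-0.32), and Arnt2 (0.30) at 12 h. All limma adjusted p values of these genes were 0.678 or higher.

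For pyruvate entry (12 of 14) the genes were Mpc1, a pyruvate carrier subunit (-0.22), and Pdhx (-0.26) at 24 h, and Pdk3 (0.24) and Dld (-0.14) at 12 h. For the citric acid cycle (17 of 18) they were Idh3b (0.10) and Mdh2 (-0.07) at 24 h, and Suclg2, a subunit of succinyl-CoA ligase (0.40, limma adjusted p = 0.56), and Fh1 (0.20) at 12 h. Every AMH array of Suclg2 at 12 h, between 8.08 and 8.32, lay above every control array, between 7.71 and 8.00, which 2.61% of all genes did in 1 direction or the other. For the pentose phosphate pathway (6 of 7) they were Taldo1 (-0.19) and Tkt (-0.07) at 24 h and Rpia (-0.20) and Pgd (0.13) at 12 h. For collagen prolyl hydroxylation (8 of 8) they were P3h1 (0.36) and Crtap (0.19) at 24 h and Crtap (0.32) and P4htm (-0.39) at 12 h, where the Crtap arrays did not overlap either, at 9.73 to 9.79 in AMH-treated and 9.37 to 9.59 in control follicles. For the 8 stress partners of Ddit4 they were Asns (-0.23) and Sesn1 (0.28) at 24 h and Ddit3 (0.42) and Sesn2 (0.38) at 12 h.

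With time in culture, 2 of 12 genes of pyruvate entry and 1 of 17 of the citric acid cycle were called in both arms. Of all genes, 4.34% were called higher and 3.95% lower in AMH-treated follicles, and 9.96% and 9.19% in control follicles. The share of all genes called in both arms was not counted. Pdk2, a pyruvate dehydrogenase kinase, averaged 8.05 ± 0.18 at 24 h against 6.97 ± 0.27 at 12 h in AMH-treated follicles, and 8.03 ± 0.13 against 6.83 ± 0.26 in control follicles (SD, n = 4 each). It rose by 1.08 and 1.20 on the log2 scale, with limma adjusted p values of 0.000975 and 0.000225. Pdp1, the phosphatase that reverses these kinases, also rose, by 0.77 in AMH-treated and 0.87 in control follicles (limma adjusted p = 0.0146 and 0.00353). No other gene of the 12 was called, and the list's median was 0.05 and 0.07. In the citric acid cycle Suclg2 rose, by 0.53 and 0.90 (limma adjusted p = 0.00759 and 0.000102).

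Of the other glycolysis genes, 1 of 13 fell in AMH-treated follicles, and 2 rose and 2 fell in control follicles. Pgm2, a phosphoglucomutase family enzyme, fell in both arms, by 0.63 and 0.66, while Slc2a10, a glucose transporter family member, fell by 0.86 in control follicles. Ldhd rose by 1.27 and Pfkfb2 by 0.58 there. Of 24 other hypoxia-linked genes, 2 fell in AMH-treated follicles, and 1 rose and 2 fell in control follicles. Beside both lists, 4.34% of all genes were called higher and 3.95% lower in AMH-treated follicles, and 9.96% and 9.19% in control follicles. Stc2, a secreted glycoprotein, fell in both arms, by 1.03 and 1.36, Gbe1, the glycogen branching enzyme, fell by 0.74 in AMH-treated follicles, and Lox, lysyl oxidase, fell by 2.59 in control follicles, where Ppp1r3c, a glycogen-targeting phosphatase subunit, rose by 1.19. The limma adjusted p values of these calls lay between 0.00544 and 0.0478. The Lox arrays of control follicles overlapped, at 4.41 to 6.04 at 24 h and 5.49 to 9.04 at 12 h. Ppp1r3c averaged 4.19 in control follicles at 12 h, close to the filter of 4.18. The list medians were -0.27 and -0.17, against -0.017 and -0.014 over all genes.

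None of the 8 HIF factors and oxygen sensors was called with time. Epas1 had 0.69 and Arnt, the shared partner of HIF alpha subunits, 0.15 in AMH-treated follicles (limma adjusted p = 0.0685 and 0.401), and Arnt had 0.29 and Vhl -0.47 in control follicles (limma adjusted p = 0.0542 and 0.0659). No gene of the pentose phosphate pathway was called, where Pgls and Pgd had 0.46 and -0.34 in AMH-treated and Rpia and Pgls -0.45 and 0.41 in control follicles. The collagen hydroxylation list had no call either, with P3h3 at 0.38 and P4hb at -0.16 in AMH-treated and P3h2 at 0.72 and P3h1 at -0.47 in control follicles. Of the 8 stress partners of Ddit4, 2 fell in both arms, while 3.95% of all genes were called lower in AMH-treated and 9.19% in control follicles. Atf4, the transcription factor of the integrated stress response, fell by 0.50 in AMH-treated and 0.51 in control follicles (limma adjusted p = 0.0312 and 0.0144), and Asns, asparagine synthetase and an Atf4 target, fell by 0.96 and 0.58 (limma adjusted p = 0.00748 and 0.049).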

How the data were processed

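Transcripts of 4 groups of 4 follicle samples were measured on Affymetrix arrays. The deposited values are linear signal intensities, 1 per probe set, made with MAS5 according to the submitters' processing notes; the version is not given in the sources used here. All 16 arrays share a trimmed mean of 150 with 2% cut at each end. No depth applies to arrays, and their number limits the precision. For time, the spread is that between arrays of a group. For AMH, it is that of the differences within pairs of arrays taken to share a pool of 8 mice.

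Signals became log2(signal + 1.46), with an offset equal to the 10th percentile over the whole table. The arrays hold 45101 probe sets; the 64 controls were dropped except 3 that are Gapdh's own, and 34948 sets named a single gene in the platform annotation. Sets whose mean reached the 40th percentile (16.7 signal units) were kept, with the highest mean standing for a gene. Models were fitted in R 4.3.3 with limma 3.58.1 (eBayes with trend) and adjusted by Benjamini-Hochberg at 0.05 over 12166 genes. AMH contrasts had the 8 pairs, of the same replicate number and time, as a block. The growth protocol says that both arms came from one pool, and the design text that samples are pairwise comparable within each experiment. Deviations of paired arrays correlated at 0.299, 0.35, 0.561 and 0.214 at 12 h and at -0.437, 0.327, 0.201 and -0.288 at 24 h. Time contrasts used 4 group means. Isoform ratios had exact permutation tests in scipy 1.17.1 under Python 3.11.15, and figures used matplotlib 3.10.9. The fits were tested on simulated data.

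The members, the lists and the rule for naming genes were chosen with earlier results of these data known. By that rule, values per array are given for members called, and for each list up to 4 called genes per comparison or, where none was called, the 2 of smallest p (for AMH, at each single time). Further members named with values per array were chosen after their values were seen. The alternatives were other offsets, filters, scalings, probe set rules, array weights, robust moderation, blocks, an oocyte covariate, fewer arrays and each replicate left out. Detection calls were not analysed here.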

Additional observations from a re-analysis of the deposited data

Results flagged for a closer look

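In 7 of 124 groups of 4 arrays, 1 array stood apart from the other 3 by Dixon's test, and chance flags about 1 in 20 groups. Of these arrays, 4 were AMH replicate 1 at 24 h, which was also the richest of its group in oocyte transcripts: Hk2 read 9.13 there against 9.56 to 9.64 on the others, Pdha1 8.05 against 8.35 to 8.37, Slc16a3 7.39 against 9.22 to 9.34, and P4ha2 5.65 against 6.90 to 6.99. In AMH-treated follicles at 12 h, replicate 1 had 6.42 for Slc2a3 against 7.23 to 7.27. In control follicles at 12 h, Pfkfb4 read 4.73 in replicate 3, also the oocyte-richest array, against 5.82 to 5.98, and Eno2 read 6.14 in replicate 4 against 6.95 to 7.07. No cause was tested.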

How the results depend on the processing

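No AMH count of called members moved from 0 under any alternative run, with or without the pairs as a block. For time, Pfkm kept its call in 18 of 19 alternatives in AMH-treated follicles, being lost without replicate 4, so that the count of members called higher there ranged from 0 to 1 when each replicate was left out, and in all 19 in control follicles (change 0.83 to 1.11). The count called lower in control follicles was 3, where 1212 of 12166 genes were called higher and 1118 lower. It was 6 with array weights, where 3948 genes were called in either direction. With each replicate left out it ranged from 1 to 1, being Eno2 without replicate 1 or 4 and P4ha1 without replicate 2 or 3. Those fits called 1185 to 1552 genes in either direction. The count called lower in AMH-treated follicles was 0, where 528 of 12166 genes were called higher and 481 lower. It was 1 with array weights, 2 with the oocyte mean as a covariate and 1 with the replicate number as a block. Those fits called 1862, 1216 and 1235 genes in either direction. The count was 2 without the oocyte-richest arrays (an alternative chosen after seeing the data), where 615 genes were called. With each replicate left out it was 0 to 1, and 344 to 638 genes were called. P4ha1 was called wherever this count was above 0. Whether the replicate numbers pair the times is not given by the labels. Deviations of the 12 h and 24 h arrays of one number correlated between 0.038 and 0.248 in AMH-treated and between -0.41 and 0.134 in control follicles. These values cannot settle this, since the AMH and control arrays taken to share a pool at 24 h correlated between -0.437 and 0.327. For single genes and ratios, 13 of 3522 values passed and 16 lost the threshold, 13 moved by more than the spread, and 272 were opposite in sign to a reported value, none of which was called; the cause was not tested. Centring arrays on their medians moved the median change of all genes from -0.014 to -0.195 for time in control follicles. For AMH at 24 h that median went from 0.006 to 0.122. With 4 arrays a group and 6 members whose AMH intervals exceed 2-fold at each time, moderate changes of those genes could not be seen.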

Other observations

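The 3′ Gapdh control probe set read higher than the 5′ one on every array, by 0.45 to 0.96 on the log2 scale. Among other marker sets, the mean of 10 of 14 immune genes lay between 5.31 and 7.16, that of 13 of 15 endothelial genes between 5.95 and 7.91 and that of the 12 surface epithelium genes between 7.13 and 8.85 over the 16 arrays.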
